A study of Sus scrofa with 12 samples.

Results

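The fibrillar collagens measured here were COL1A1, COL1A2, COL3A1, COL5A1, COL5A2 and COL27A1, and to these were added the fibril-associated COL12A1 and SERPINH1, the chaperone of procollagen. These 8 genes were picked by name, and each matched 1 pig Ensembl identifier among the 21153 genes of the count table. Primary arterial endothelial cells (ECs) of 3 pigs, 8 months old, were grown to confluence on gelatin in medium with 10% fetal calf serum and heparin. They were then exposed for 48 h to laminar shear stress of 2 dyne/cm2 (low, as in parts of an aneurysm), 30 dyne/cm2 (physiological) or 80 dyne/cm2 (supra-high). Every donor gave 4 RNA-seq libraries, 1 at 2, 1 at 80 and 2 at 30 dyne/cm2, so that each of the 4 groups held 3 libraries. The sets at physiological flow carry the names 30.1 and 30.2 in the table, and 2 dyne/cm2 was compared with 30.1 and 80 dyne/cm2 with 30.2, always within a donor. No genotype, breed or sex is given, no cells were left without flow, and donors 1, 2 and 3 are the replicate numbers of the labels. The labels call the cells aortic and the methods coronary. The deposited design puts low and supra-high flow, each with its controls, in different flow slides at different seeding densities, whereas the methods give the same slide throughout, and it was not stated which slide 30.1 or 30.2 stands for.

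Fibrillar collagens are rope-like molecules of coiled chains that cells secrete as procollagen, trim at both ends and pack into fibrils. Type I collagen, built from the chains of COL1A1 and COL1A2, gives the artery wall its tensile strength, and type III, built from COL3A1 alone, runs with it in distensible tissues such as vessels. Type V (COL5A1 and COL5A2) sits inside these fibrils and limits their width, type XII (COL12A1) coats their surface, and type XXVII (COL27A1) is best known from cartilage. SERPINH1 encodes HSP47, which binds folded procollagen in the endoplasmic reticulum and escorts it toward the Golgi. In the vessel wall, smooth muscle cells and fibroblasts are the main makers of types I and III.

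The total number of reads on genes lay between 29606854 and 41058902 per library. Values are given as CPM, the counts scaled to an equal total per library, which do not correct for gene length, so levels of different genes cannot be ranked here. COL1A1 had 21 to 1915 counts per library, COL1A2 38 to 7342 and COL27A1 204 to 549, and the other 5 genes had at least 1114 counts in every library. The endothelial identity of the cells was checked with 10 marker genes, of which 7 were found by symbol, and all 7 were above 1 CPM in every library. Their summed level was 4409 to 5611 CPM at 2 dyne/cm2, 6920 to 7725 and 6558 to 7402 CPM in sets 30.1 and 30.2, and 7930 to 8622 CPM at 80 dyne/cm2. All 7 had negative log2 fold changes at 2 dyne/cm2, with a median of -0.56. PECAM1 (-0.71, adjusted p = 0.0346) and ESAM (-0.56, adjusted p = 0.0179) passed the adjusted p alone. TEK was the marker called, down at 2 dyne/cm2 with 65.9 ± 22.1 CPM against 497 ± 38.3 CPM (SD, n = 3). The part of this shift of the markers in the collagen results was not tested. Of 7 smooth muscle markers, 5 (ACTA2, TAGLN, MYH11, CNN1 and DES) were at or under 1 CPM in every library. SMTN had 42.9 to 81.9 CPM and LMOD1 0.689 to 5.30 CPM per library, and neither was called in either comparison.

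At low shear stress COL3A1 and COL12A1 rose 3.93-fold and 2.20-fold vs. set 30.1, while COL1A1 had a fitted value of 2.71-fold that did not pass. At supra-high shear stress COL3A1 alone passed, and it was 3.73 times lower than in set 30.2. A gene was called when its fold change reached 2 and its adjusted p lay below 0.05 (quasi-likelihood test of edgeR with the donor as block, Benjamini-Hochberg adjustment over every gene of the fit). All 8 genes passed the filter on low counts (1 CPM or more in 3 or more of 6 libraries). Under low flow 2 of the 8 went up and 0 down, where of 11226 genes in the fit 5.06% were called up and 4.54% down (9.6% in both directions, or 5.66% without the donor block, which called 1 of the 8). Under supra-high flow 0 went up and 1 down, where of 11187 genes 1.14% were called up and 1.05% down (2.2% in both directions, or 0% without the donor block). The 8 genes had a median log2 fold change of 0.78 under low and -0.29 under supra-high flow, next to 0.00 and -0.01 over all genes of the fits. Counting only direction, 5 of the 8 were higher at 2 dyne/cm2 in all 3 donors and 1 was lower, against 31.3% and 34.2% of all genes. Under supra-high flow 2 were higher and 4 lower in all 3 donors, against 24.7% and 24.5%.

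**Figure D1:**
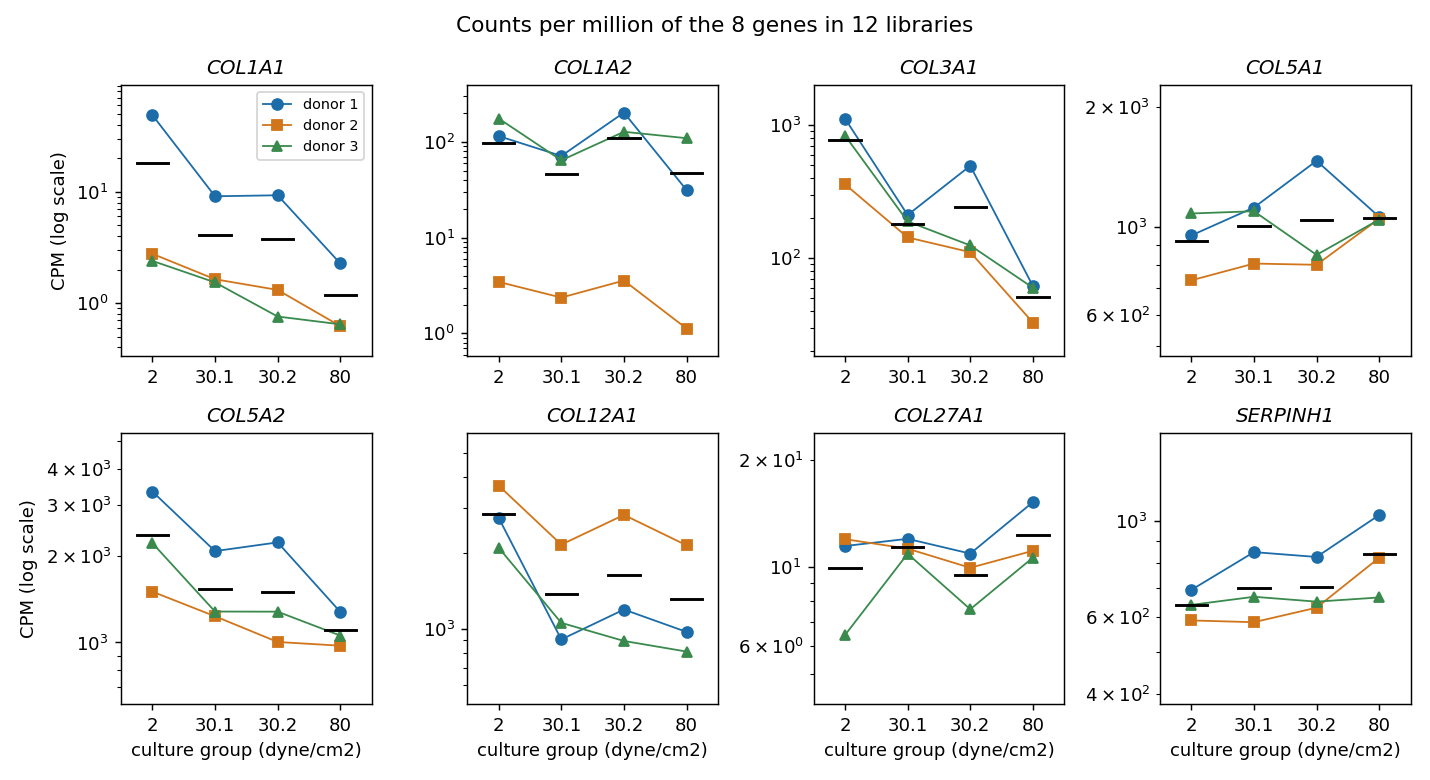
CPM (log scale) of each of the 8 genes in the 12 libraries, with 1 line and marker per donor and the culture groups in dyne/cm2 along the horizontal axis. COL3A1 ran downward from 2 over 30 to 80 dyne/cm2 in every donor, COL5A1 stayed between 732 and 1464 CPM, and the lines of the donors for COL1A2 were far apart.

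COL3A1 (ENSSSCG00000016034, chromosome 15, 93556914 to 93595678) had the widest response of the set. In donors 1, 2 and 3 it had 1116, 359 and 832 CPM at 2 dyne/cm2, against 211, 143 and 189 CPM in set 30.1. It had 61.9, 32.9 and 60.1 CPM at 80 dyne/cm2, against 494, 111 and 125 CPM in set 30.2. Every library at low flow lay above every library of its control set, and every library at supra-high flow lay below every library of either control set. Set 30.2 of donor 1 was the highest of the 6 control libraries. The rise at 2 dyne/cm2 was 5.23-, 2.46- and 4.54-fold in donors 1, 2 and 3 after TMM normalization (log2 fold change 1.97, standard error [SE] 0.24, adjusted p = 0.00905). The level at 80 dyne/cm2 was 8.40, 3.12 and 1.97 times lower (log2 fold change -1.90, SE 0.35, adjusted p = 0.0203). Without the donor block the call at 2 dyne/cm2 stood (adjusted p = 0.0337), but the call at 80 dyne/cm2 was lost (adjusted p = 0.504), as it was without donor 2 (log2 fold change -2.05, adjusted p = 0.0569). It stood in the other 10 of 12 alternatives. COL3A1 lies 16177 bases from COL5A2 with no annotated gene between them.

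The chains of type I collagen had low and very unequal levels. COL1A1 (ENSSSCG00000036135, chromosome 12, 26379087 to 26397180) had 48.9, 2.77 and 2.39 CPM at 2 dyne/cm2 in donors 1, 2 and 3, against 9.11, 1.64 and 1.53 CPM in set 30.1. Under supra-high flow it had 2.27, 0.621 and 0.644 CPM, against 9.30, 1.31 and 0.756 CPM in set 30.2. Within each donor the order was thus low flow, both control sets, supra-high flow, but the groups overlapped, with donor 1 the highest in each of them. Neither the log2 fold change of 1.44 under low flow (SE 0.41, adjusted p = 0.0590) nor that of -1.34 under supra-high flow (SE 0.36, adjusted p = 0.0668) was called. At 2 dyne/cm2 it passed in 4 of 12 alternatives, among them DESeq2 (adjusted p = 0.00350), with adjusted p of 0.00350 to 0.333 over the 12. Leaving out donor 1, whose rise was 5.29-fold against 1.64- and 1.59-fold in the others, brought the log2 fold change to 0.72.

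COL1A2 (ENSSSCG00000015326, chromosome 9, 74174484 to 74210407) had 114, 3.45 and 175 CPM at 2 dyne/cm2 and 71.1, 2.36 and 64.0 CPM in set 30.1. It had 31.3, 1.12 and 109 CPM at 80 dyne/cm2 and 201, 3.56 and 127 CPM in set 30.2. Donor 2 was the lowest in every group, with 38 to 114 counts per library. The log2 fold change at 2 dyne/cm2 was 0.96, under 2-fold (SE 0.21, adjusted p = 0.0325). Under supra-high flow it was -1.46 (SE 0.47, adjusted p = 0.104), made of levels 6.76, 2.85 and 1.11 times lower in donors 1, 2 and 3. These values depended on the control set, since COL1A2 was higher in 30.2 than in 30.1 in all 3 donors (log2 fold change 1.11, SE 0.16, adjusted p = 0.0830). With the control sets exchanged the log2 fold change was -0.11 under low and -0.40 under supra-high flow.

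The chains of type V collagen had unlike values, and neither was called. COL5A2 (ENSSSCG00000016035, chromosome 15, 93611856 to 93981131) had 3333, 1500 and 2210 CPM at 2 dyne/cm2 and 2072, 1232 and 1280 CPM in set 30.1. It had 1277, 975 and 1057 CPM at 80 dyne/cm2, and in set 30.2 2222, 1004 and 1279 CPM. It was thus higher at low flow in 3 of 3 donors, with a log2 fold change of 0.60 that was under 2-fold (SE 0.16, adjusted p = 0.0508). Under supra-high flow the value was -0.34 (SE 0.18, adjusted p = 0.280), and donor 2 went slightly the other way after normalization. COL5A1 (ENSSSCG00000005751, chromosome 1, 273934219 to 274083264) had 950, 732 and 1079 CPM at 2 dyne/cm2 and 1117, 807 and 1093 CPM in set 30.1. Its levels at 80 dyne/cm2 were nearly equal, 1058, 1047 and 1042 CPM, while set 30.2 spread from 801 CPM in donor 2 and 849 CPM in donor 3 to 1464 CPM in donor 1. Its log2 fold changes of -0.12 (SE 0.11, adjusted p = 0.476) and 0.11 (SE 0.20, adjusted p = 0.775) did not exceed the spread between donors. The span of COL5A2 in the annotation overlaps WDR75 and 2 uncharacterized genes, and whether reads were counted by strand was not stated.

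COL12A1 (ENSSSCG00000004484, chromosome 1, 90744409 to 90875127) rose at low flow. It had 2753, 3697 and 2096 CPM at 2 dyne/cm2 in donors 1, 2 and 3, against 907, 2156 and 1055 CPM in set 30.1. It had 971, 2143 and 811 CPM at 80 dyne/cm2, against 1192, 2829 and 894 CPM in set 30.2. Donor 2 was the highest in each group, the reverse of its place for COL1A2, and its controls reached the level of donor 3 at low flow. The rise was 3.01-, 1.68- and 2.05-fold (log2 fold change 1.14, SE 0.20, adjusted p = 0.0193). Under supra-high flow the log2 fold change was -0.25 (SE 0.12, adjusted p = 0.236), lower in 3 of 3 donors. The call at 2 dyne/cm2 was lost without the donor block (adjusted p = 0.107), without donor 1 (log2 fold change 0.90, adjusted p = 0.0711) and against the other control set, where the change was under 2-fold (0.97, adjusted p = 0.0379). Over the 12 alternatives the adjusted p ran from 7.3e-08 to 0.107.

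COL27A1 (ENSSSCG00000005487, chromosome 1, 254768576 to 254924893) was not called in either comparison. It had 15.2, 11.09 and 10.6 CPM at 80 dyne/cm2 and 10.9, 9.93 and 7.59 CPM in set 30.2, higher in 3 of 3 donors (log2 fold change 0.41, SE 0.12, adjusted p = 0.0758). At 2 dyne/cm2 it had 11.4, 11.96 and 6.42 CPM and in set 30.1 11.98, 11.2 and 10.9 CPM (log2 fold change -0.22, SE 0.18, adjusted p = 0.392). The library of donor 3 under low flow was the lowest of all 12, and without that donor the log2 fold change was 0.0034.

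SERPINH1 (ENSSSCG00000039468, chromosome 9, 9782939 to 9794485) was not called in either comparison. It had 693, 590 and 640 CPM at 2 dyne/cm2 and 846, 584 and 668 CPM in set 30.1. It had 1030, 822 and 666 CPM at 80 dyne/cm2, and in set 30.2 825, 631 and 651 CPM. The groups overlapped in both comparisons. Its log2 fold changes of -0.10 under low flow (SE 0.11, adjusted p = 0.543) and 0.28 under supra-high flow (SE 0.11, adjusted p = 0.182) were made of lower and higher values, respectively, in 3 of 3 donors after normalization. Under low flow donors 2 and 3 were nearly unchanged, with log2 values of -0.015 and -0.018 against -0.30 in donor 1. An uncharacterized gene overlaps SERPINH1 in the annotation.

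**Figure D2:**
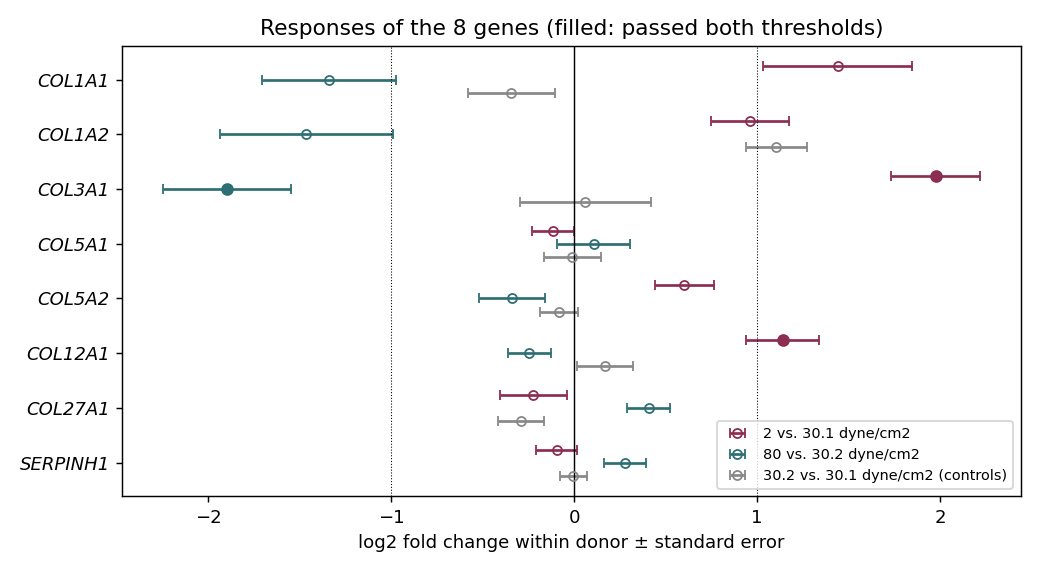
Log2 fold change within donor (points) with its SE (bars) for each of the 8 genes at 2 vs. 30.1, 80 vs. 30.2 and 30.2 vs. 30.1 dyne/cm2, with filled points for calls and dotted lines at 2-fold. COL3A1 stood at 1.97 and -1.90 with its control sets near 0, while COL1A2 was at 1.11 between the control sets.

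The difference between the responses was tested in a model of all 12 libraries, as the log2 fold change at 2 vs. 30.1 minus that at 80 vs. 30.2 dyne/cm2. For 6 of the 8 genes it had an adjusted p below 0.05, 5 with a positive and 1 with a negative difference, where 37.1% of 11568 genes did (19.3% positive, 17.9% negative). The difference was 3.96 for COL3A1 (SE 0.53, adjusted p = 5.8e-04), 2.81 for COL1A1 (0.66 and 0.00945), 2.37 for COL1A2 (0.60 and 0.0126), 1.42 for COL12A1 (0.28 and 0.00406) and 0.94 for COL5A2 (0.25 and 0.0166). The value for COL1A2 includes its shift of 1.11 between the control sets, and with these exchanged its responses were -0.11 and -0.40. COL27A1 had the opposite sign, -0.62 (SE 0.20, adjusted p = 0.0373). COL5A1 at -0.19 (SE 0.29, adjusted p = 0.645) and SERPINH1 at -0.37 (SE 0.17, adjusted p = 0.123) did not pass. Without the donor block 1 of the 8 passed, COL3A1 (adjusted p = 0.00985, with 15.1% of all genes), and 2 passed without donor 1. If the slides were used as the deposited design says, flow slide and comparison cannot be told apart in this difference.

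The sets at 30 dyne/cm2 had the same shear stress, so their contrast gives the size of changes without a change in flow. If the slides were used as the deposited design says, it may also hold differences of flow slide and seeding density. None of the 8 genes was called between them by edgeR, where 0.00896% of the 11163 genes tested were called. COL1A2 had the lowest unadjusted p of the 8 in that test (5.7e-04, adjusted p = 0.0830). DESeq2 with the donor block called COL1A2 (adjusted p = 4.6e-07), where it called 0.591% of all genes. The other 7 genes had log2 fold changes between -0.34 (COL1A1) and 0.17 (COL12A1). For COL3A1 the value of 0.06 was made of opposite values, 1.22 in donor 1 and -0.38 and -0.66 in donors 2 and 3. An order with 2 dyne/cm2 above both control sets and both above 80 dyne/cm2, in every donor, was found on TMM-normalized log2 CPM for COL1A1 and COL3A1, and for 4.11% of all 11568 genes. COL5A2 had this order in the CPM given above but not after normalization, by donor 2. The reverse order was found for none of the 8 and for 5.11% of all genes.

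Differences between donors were widest in the chains of type I collagen. In a test of the donor term 7 of the 8 (all but COL5A1) had an adjusted p below 0.05, where 42.2% of 11568 genes did. Donor means of COL1A2 spanned 47.0-fold, and the donor held 92.0% of the variance of its log2 CPM, with 5.45% for the culture group. COL1A1 spanned 8.02-fold with 61.4% for the donor and 31.7% for the group. COL3A1 was the reverse case, with 13.3% for the donor and 80.2% for the group. COL5A2 and COL12A1 divided nearly evenly, with 45.0% and 49.5% for the donor and 44.8% and 43.4% for the group. The median gene had 31.1% for the donor, 41.7% for the group and a span of 1.24-fold between donors.

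The donor pattern differed between the type I chains, with COL1A1 high in donor 1 alone and COL1A2 high in donors 1 and 3. Among 10 fibroblast and pericyte markers, 9 were found by symbol, and only POSTN (periostin, a secreted matrix protein) was abundant. POSTN had 172 to 1689 CPM in the libraries of donor 1, 15.8 to 88.3 CPM in donor 2 and 1.69 to 33.0 CPM in donor 3, so it was also highest in donor 1. By flow, POSTN had 1689, 88.3 and 33.0 CPM at 2 dyne/cm2 in donors 1, 2 and 3 and 520, 53.4 and 3.57 CPM in set 30.1 (log2 fold change 1.81, adjusted p = 0.0517). It had 172, 15.8 and 1.69 CPM at 80 dyne/cm2 and 340, 24.8 and 1.7998 CPM in set 30.2 (-0.68, adjusted p = 0.0474, under 2-fold). The difference between its responses was 2.58 (adjusted p = 0.00881), of the same sign as that of COL3A1 and COL1A1. The summed level of the other markers was 4.46 to 21.9 CPM per library. It was 10.4 to 21.9 CPM at 2, 8.14 to 21.2 CPM in set 30.1, 4.46 to 16.4 CPM in set 30.2 and 6.06 to 13.6 CPM at 80 dyne/cm2. PDGFRA and PDGFRB were called up at 2 dyne/cm2, from 1.70 ± 0.534 to 3.56 ± 1.12 CPM and from 0.791 ± 0.520 to 4.22 ± 2.86 CPM (SD, n = 3). Without the donor block both calls were lost (adjusted p = 0.0949 and 0.116). LUM, with at most 16.3 CPM, was not called at 2 dyne/cm2 (log2 fold change -0.11, adjusted p = 0.763). DCN had 2.25 ± 2.03 CPM at 2 dyne/cm2 and 0.366 ± 0.113 CPM in set 30.1. It had 0.281 ± 0.163 CPM in set 30.2 and 0.228 ± 0.113 CPM at 80 dyne/cm2. DCN did not pass the filter on low counts, and with no filter it was called at 2 dyne/cm2. CSPG4 was called down at 2 dyne/cm2, with at most 1 count in each library there. In this comparison CSPG4 met the filter on low counts only through set 30.1, where it had 2.94 ± 2.35 CPM. It was called up at 80 dyne/cm2, but not without the block (adjusted p = 0.578). Their part in the collagen results was not tested, and in these bulk libraries fewer cells of a type and less RNA per cell cannot be told apart.

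Within a library, the counts of partner chains can be set against each other without any normalization. The ratio of COL5A1 to COL5A2 counts was 0.285, 0.488 and 0.488 at 2 dyne/cm2 in donors 1, 2 and 3, against 0.539, 0.655 and 0.854 in set 30.1. It was 0.829, 1.07 and 0.986 at 80 dyne/cm2, against 0.659, 0.798 and 0.664 in set 30.2. All 3 ratios at low flow lay below all 6 control ratios, and all 3 at supra-high flow lay above those of set 30.2 but overlapped 30.1. The group means were 0.421 ± 0.117, 0.683 ± 0.159, 0.707 ± 0.0788 and 0.963 ± 0.124 at 2, 30.1, 30.2 and 80 dyne/cm2 (SD, n = 3). Counting error was small next to these gaps, for instance 0.282 to 0.288 around the lowest ratio (95% exact binomial interval, which covers counting error only). Gene length is not removed from the ratio, so it shows change between libraries and not the makeup of the protein.

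The ratio of COL1A1 to COL1A2 counts differed mainly between donors. It was 0.0462 to 0.427 over the 4 libraries of donor 1, 0.368 to 0.804 in donor 2 and 0.00591 to 0.0239 in donor 3. Donor 3 was thus separate from the others, with 21 to 76 counts of COL1A1 beside 2172 to 5550 of COL1A2. In donors 1 and 2 the highest ratio was at 2 dyne/cm2, and in donor 3 it was in set 30.1.

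**Figure D3:**
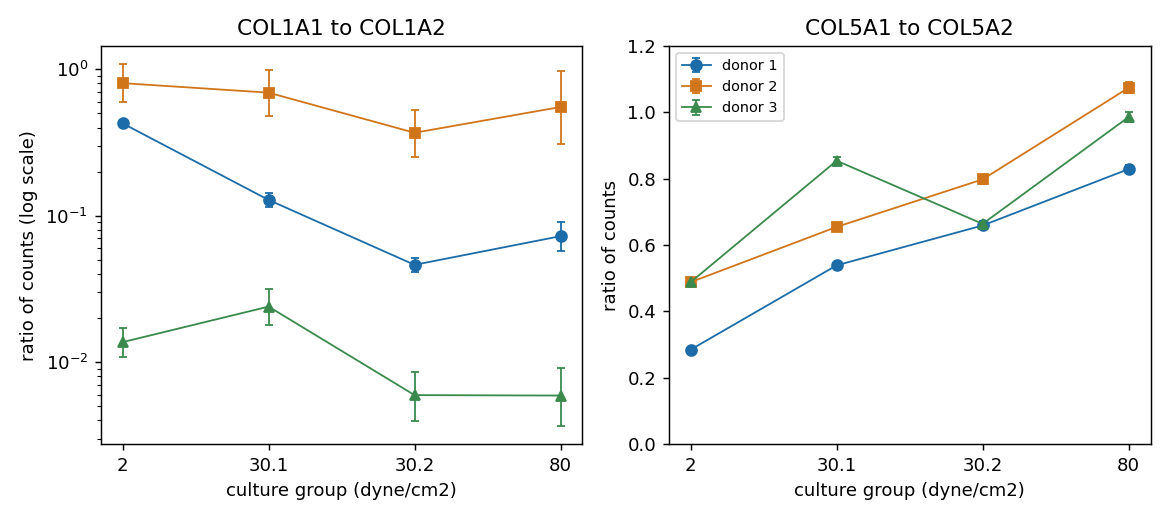
Ratio of counts of COL1A1 to COL1A2 (left, log scale) and of COL5A1 to COL5A2 (right, linear scale) in each culture group, 1 line per donor, with 95% exact binomial intervals as bars. The type V ratio rose from 0.285 to 0.488 at 2 dyne/cm2 to 0.829 to 1.07 at 80 dyne/cm2, while the type I ratio separated donor 3 from the other donors.

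Likeness across the 12 libraries, after removal of each donor's mean, was measured by correlation. These values are descriptions, since the libraries share donors and culture groups. COL3A1 ran with COL5A2 (Pearson's r = 0.93) and COL1A1 (0.92), and COL12A1 with both COL5A2 (0.85) and COL3A1 (0.85). The partner chains COL1A1 and COL1A2 had r = 0.60, and COL5A1 and COL5A2 had r = -0.02. SERPINH1 ran against COL1A1 (-0.74) and COL3A1 (-0.72) and with COL5A1 (0.60).

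Among 9669 other genes with a symbol and at least 50 counts on average, the 3 of most like pattern were taken for each gene. COL3A1 was most like CTHRC1 (r = 0.978), a secreted protein with a short collagen repeat, which was called in both comparisons with log2 fold changes of 2.46 (SE 0.29, adjusted p = 0.00876) and -2.05 (SE 0.30, adjusted p = 0.00942). URI1 and ITGB5, an integrin chain, came next. COL1A1 was most like FZD7, a Wnt receptor (0.963), RGCC and URI1, and COL5A2 was most like ACHE, acetylcholinesterase (0.980), FAM53C and BROX. COL12A1 was most like PLEKHF1, MR1 and HERC5, COL1A2 like FBXL4, TLK1 and MFF, and COL27A1 like USP13, QPCTL and RPP21. COL5A1 had the least close neighbours, NUCB1 (0.885), RFX7 and SPARC, a collagen-binding matrix protein (0.808). SERPINH1 was most like ZYX (0.956) and FLNA (0.949), which encode zyxin of focal adhesions and the actin crosslinker filamin A.

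The machinery around the fibrils was described with 5 lists of collagen-related genes. Of 14 other fibrillar and fibril-associated collagens, 11 were found by symbol. Of these only COL14A1, COL16A1 and COL24A1 were expressed enough to be tested, with none called in either comparison. COL16A1, fibril-associated like COL12A1, had 16.0 ± 4.13 CPM at 2 dyne/cm2 and 8.76 ± 3.40 CPM in set 30.1 (log2 fold change 0.92, under 2-fold, adjusted p = 0.0193). COL24A1, a fibrillar collagen, had 1.53 ± 1.37 and 3.05 ± 2.87 CPM (-0.98, also under 2-fold, adjusted p = 0.0309), and it was called down when the other set or both sets served as control. Of 21 genes tested for procollagen folding, modification and export, 2 were up-regulated at low flow and none down-regulated, and none was called at 80 dyne/cm2. PLOD2, a lysyl hydroxylase that prepares collagen for crosslinking, rose from 325 ± 59.1 to 656 ± 135 CPM (log2 fold change 1.02, adjusted p = 0.0302). P3H2, a prolyl 3-hydroxylase, rose from 20.8 ± 12.5 to 44.3 ± 13.9 CPM (1.29, adjusted p = 0.0363). The call of PLOD2 was lost in 5 of 12 alternatives, with log2 fold changes of 0.72 without donor 3 and 0.75 against the other control set and an adjusted p of 0.0675 without donor 2. That of P3H2 was lost in 3, with an adjusted p of 0.207 without the block and 0.0694 without donor 2 and a log2 fold change of 0.87 without donor 3. The median of this list was 0.01 at 2 and 0.10 at 80 dyne/cm2, near that of all genes (0.00 and -0.01).

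Of 15 genes tested for propeptide removal, fibril assembly and crosslinking, 3 went up and 2 down under low flow. LOXL1, a lysyl oxidase of elastic fibres, rose from 11.9 ± 5.23 to 49.8 ± 4.51 CPM (log2 fold change 2.15, adjusted p = 0.00833). LOXL4, of the same enzyme family, rose by 1.04 (adjusted p = 0.0195) and FMOD, fibromodulin, by 1.39 (adjusted p = 0.0203), both on the log2 scale. FMOD was low, with 1.94 ± 1.15 CPM in set 30.1 and 4.74 ± 1.45 CPM at 2 dyne/cm2. The call of LOXL4 was lost in 5 of 12 alternatives (adjusted p = 0.403 without the block, 0.0563 without donor 2 and 0.0608 without donor 3, and under 2-fold against the other set or both sets), and that of FMOD without the block (adjusted p = 0.111). TLL2, a relative of the procollagen C-proteinase BMP1, and TNXB, tenascin X, had log2 fold changes of -1.84 (adjusted p = 0.00849) and -1.31 (adjusted p = 0.00926). TLL2 was also low, with 4.36 ± 1.27 CPM in set 30.1 and 1.18 ± 0.136 CPM at 2 dyne/cm2. Under supra-high flow only FN1, fibronectin, was called, from 45705 ± 12344 to 10829 ± 1146 CPM (log2 fold change -2.01, adjusted p = 0.00806). This call was lost in 4 of 11 alternatives, namely DESeq2 with the block (adjusted p = 0.0923), no block (0.369), without donor 3 (0.131) and the other control set (0.0662). At 2 dyne/cm2 FN1 had 79250 ± 29639 CPM against 31760 ± 6361 CPM in set 30.1 (log2 fold change 1.28, adjusted p = 0.0861). There it was called only with dispersion from all 12 libraries or with both control sets. The difference between its responses was 3.37 (adjusted p = 9.7e-04). FN1 took 0.951% to 11.096% of all reads on genes, and with it left out the same number of the 8 genes was called in every comparison. The medians of this list were -0.11 and -0.30.

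Of 10 genes tested for collagen receptors, uptake and breakdown, 1 was up-regulated and 2 down-regulated at low flow. ITGA1, the α chain of a collagen-binding integrin, rose from 10.0 ± 2.42 to 43.4 ± 21.5 CPM (log2 fold change 2.03, adjusted p = 0.0277). ITGA10, of another collagen-binding integrin, fell from 61.7 ± 40.7 to 19.8 ± 4.25 CPM (-1.46, adjusted p = 0.0194). MMP14, a membrane-bound collagenase, fell from 884 ± 161 to 268 ± 34.6 CPM (-1.70, adjusted p = 0.00613). Without the block the call of ITGA10 was lost (adjusted p = 0.0811). None of the 10 was called at 80 dyne/cm2, and the medians of the list were -0.20 and 0.02.

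Among the other collagens, 0 of 6 tested went up and 3 went down under low flow. COL23A1, a transmembrane collagen, fell from 43.1 ± 22.0 to 8.68 ± 2.14 CPM (log2 fold change -2.17, adjusted p = 0.00741). COL6A1 of microfibrils and COL17A1 of hemidesmosomes were low throughout and had log2 fold changes of -2.31 (adjusted p = 0.0180) and -2.37 (adjusted p = 0.0115). At 2 dyne/cm2 COL17A1 had 0.741 ± 0.270 CPM, against 4.09 ± 2.57 CPM in set 30.1. It thus met the filter on low counts only through set 30.1, the group where it was high. With 10 counts or more required in every library it was also called (-2.37, adjusted p = 0.00985). Under supra-high flow 1 of 7 tested was up-regulated, COL17A1 (1.75, adjusted p = 0.00291), and 1 was down-regulated, the network-forming COL8A1 (-1.16, adjusted p = 0.0160). The calls of COL17A1 and COL8A1 were lost in 2 and 5 alternatives, both of them without the block (adjusted p = 0.401 and 0.710) and against the other control set (0.124 and 0.338), and without donor 2 the value of COL8A1 was -0.94 (adjusted p = 0.0510). COL6A1 lost its call without the block (adjusted p = 0.0906). The medians were -1.34 and 0.12. Over the 5 lists 13 of 55 tested genes were called under low flow (23.6%, where 9.6% of all genes were), 6 of them up-regulated, and 3 of 56 under supra-high flow (5.36%, where 2.2% were). Without the donor block, 8 and 0 were called.

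**Figure D4:**
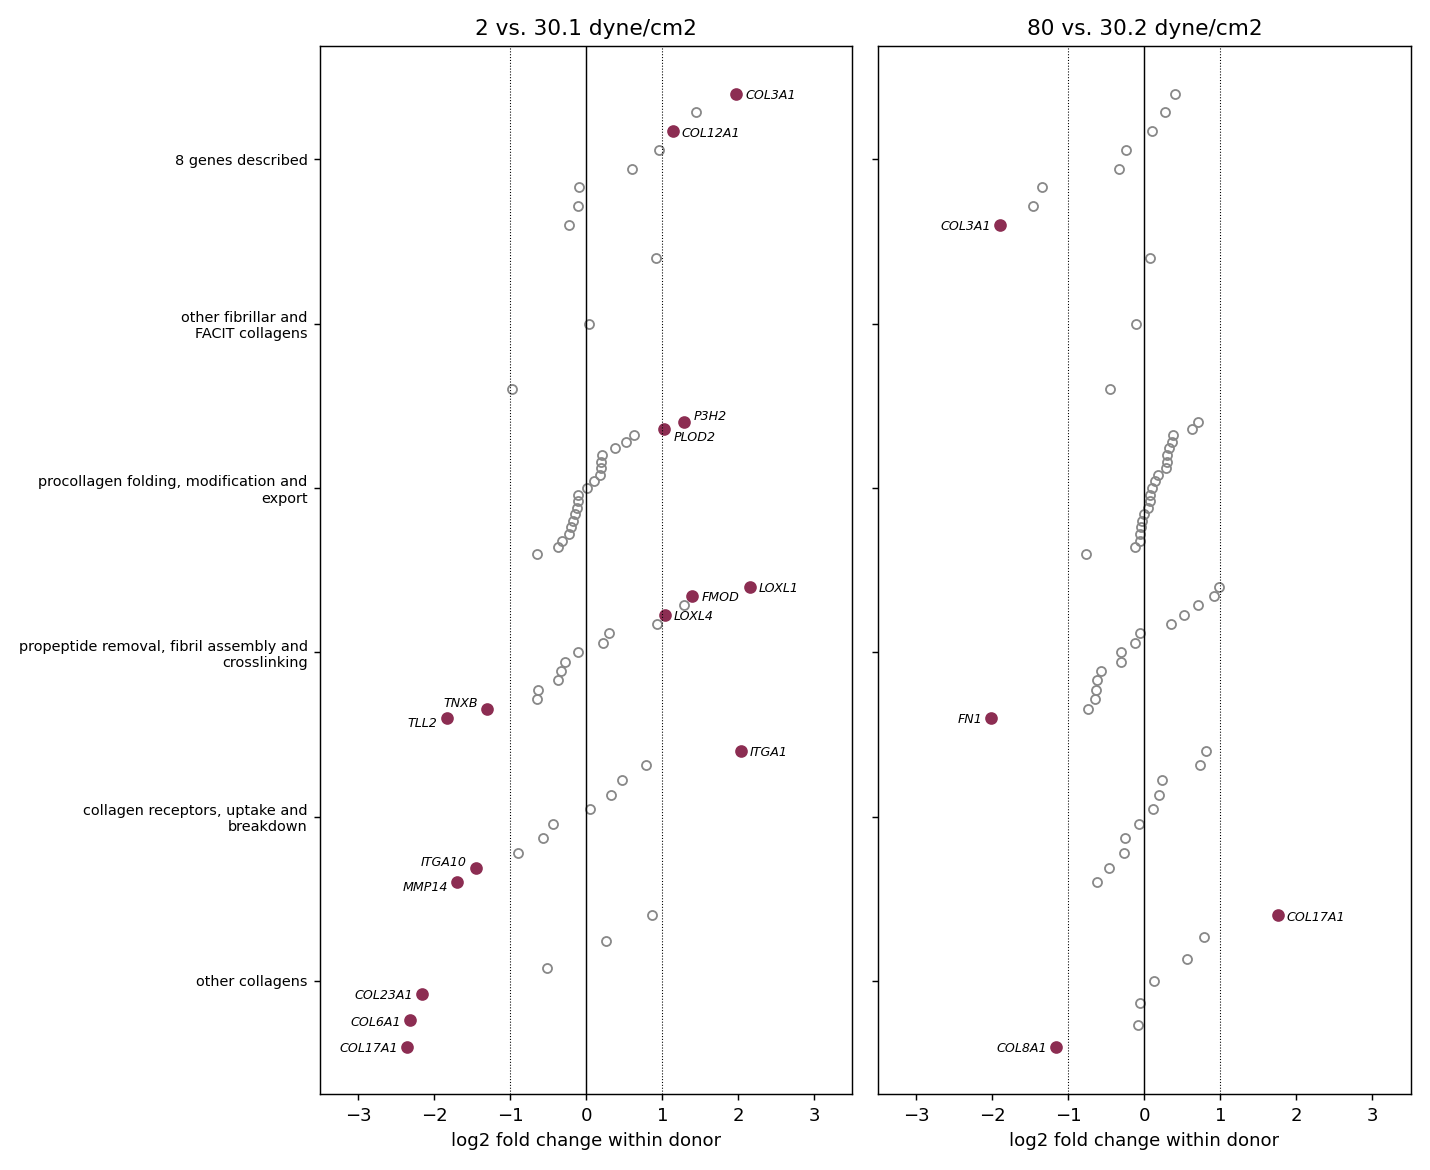
Log2 fold changes within donor at 2 vs. 30.1 (left) and 80 vs. 30.2 dyne/cm2 (right) for every tested gene of the 8 described here and of 5 lists of collagen-related genes, with filled, named points for calls and dotted lines at 2-fold. Calls at 2 dyne/cm2 lay on both sides of 0, with COL3A1, LOXL1 and ITGA1 near 2 and COL17A1, COL6A1 and COL23A1 near -2, while 4 genes were called at 80 dyne/cm2.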

How the data were processed

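The authors sequenced single-end libraries of total RNA, mapped them to Sscrofa11.1 with STAR 2.4, discarded reads with more than 1 location and counted reads over the merged exons of protein-coding isoforms with featureCounts 1.4.6 (CASAVA 1.8.2 is also named in the submitters' processing notes). The deposited table holds their raw counts, without normalization, and all of its sample columns were used. Symbols and positions came from RefSeq's annotation of Sscrofa11.1, and 14572 genes (68.9%) had a symbol. Listed genes not found by symbol may be among the identifiers without one.

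Count models were fitted by edgeR 4.0.16 under R 4.3.3, with TMM factors, the quasi-likelihood test and Benjamini-Hochberg adjusted p. Each comparison was fitted on its 6 libraries with the donor as block, for genes that reached 1 CPM in 3 or more of them, which left 2 residual degrees of freedom. The standard error is the size of a log2 fold change divided by the square root of F. CPM use total counts, and folds use TMM factors. Likeness used log2 CPM with a prior count of 2.

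The methods compare cultures of the same donor and passage, and the source names carry a culture letter per replicate number. Over 11568 genes, with group means removed, r between libraries was 0.67 to 0.88 in the 18 pairs that share a number and -0.55 to -0.19 in the other 36. The block lowered the biological coefficient of variation from 27.6% to 15.5% at 2 dyne/cm2 and from 29.4% to 11.4% at 80 dyne/cm2.

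All 8 genes were named, as was every gene of the 5 lists past both thresholds and, per gene, the 3 of most like pattern, of which 1 is not reported here; COL14A1, COL16A1 and COL24A1 were also named, after their values were seen. The 8 genes, the lists, the markers and the tests were chosen with earlier results of these data known. Alternatives were relative log expression normalization, DESeq2 1.42.0, 10 counts or more in every library, no filter, no replicate block, each donor left out, dispersion from all 12 libraries, the adjusted p alone, and the other or both control sets. The scripts were tested on simulated data. A further alternative, with FN1 left out, was added once the data had been seen.

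The leukocyte markers (CD68 called down at 2 dyne/cm2) summed to 8.22 to 27.4 CPM, and the smooth muscle markers to 48.4 to 85.2 CPM.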

Additional observations from a re-analysis of the deposited data

Results flagged for a closer look

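The responses to low and supra-high shear stress differed for 6 of the 8 genes in a test of the difference itself (edgeR quasi-likelihood test over 12 libraries with the donor block). The same test passed 37.1% of all 11568 genes (19.3% with a positive and 17.9% with a negative difference). The log2 fold change at 2 dyne/cm2 minus that at 80 dyne/cm2 was 2.81 for COL1A1, 2.37 for COL1A2, 3.96 for COL3A1, 0.94 for COL5A2, 1.42 for COL12A1 and -0.62 for COL27A1. For COL1A1, COL1A2, COL3A1 and COL12A1, all 3 donors were higher at low flow and lower at supra-high flow, each against its own control set. For COL1A2 this depended on the pairing, since against the other set the log2 change at 2 dyne/cm2 was -0.83, -0.061 and 0.56 in donors 1, 2 and 3 and that at 80 dyne/cm2 was -1.26, -0.94 and 0.78. For COL5A2 and COL27A1 donor 2 was higher at both after TMM normalization.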

How the results depend on the processing

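COL3A1 was called at 2 dyne/cm2 in 12 of 12 alternatives, with log2 fold changes of 1.75 to 2.31. Without the replicate block, 1 of the 8 genes was called at 2 dyne/cm2 (2 with it) and 0 at 80 dyne/cm2 (1 with it). For the difference between responses it was 1 (6 with it). Of all genes, 5.66%, 0% and 15.1% were called without the block, against 9.6%, 2.2% and 37.1% with it. Of the list genes 8 were called at 2 (13 with it) and 0 at 80 dyne/cm2 (3 with it). With no filter on low counts 3 of the 8 were called at 80 dyne/cm2, where 2.02% of all genes were. On the adjusted p alone 24 list genes were called at 2 and 14 at 80 dyne/cm2 (25.8% and 8.4% of all genes). With the other set as control 0 list genes were called at 80 dyne/cm2 (0.216% of all genes). Leaving out each donor in turn gave 0 to 2 of the 8 genes at 80 dyne/cm2 (0 without donor 2, 2 without donor 3). List genes there were 2 to 6 (6 without donor 1). Of all genes, 2.61%, 1.21% and 1.25% were called at 80 dyne/cm2 without donors 1, 2 and 3. For the difference these fits gave 2 to 5 of the 8 (2 without donor 1), with 21%, 29.2% and 17.1% of all genes. Between control sets they gave 0 to 1 (1 without donor 2), with 0%, 0.57% and 0.0366% of all genes. Between the control sets DESeq2 and the fit with no filter each called 1, COL1A2, where they called 0.591% and 0.275% of all genes.

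Direction changed in 13 cases. At 2 dyne/cm2 COL27A1 was -0.37 to 0.0034 with a donor left out (0.0034 without donor 3) and 0.066 against the other set, and COL1A2 was -0.11 against that set. At 80 dyne/cm2 COL5A1 was -0.10 to 0.42 (negative without donor 2 or 3), and its difference between responses -0.48 to 0.056 (positive without donor 2). Between the control sets COL5A1 was 0.032 without the block, 0.011 with dispersion from all libraries and -0.22 to 0.19 with a donor left out (positive without donor 3). With a donor left out COL3A1 was -0.51 to 0.43 (negative without donor 1) and COL5A2 -0.18 to 0.028 (positive without donor 2). SERPINH1 was -0.058 to 0.035, negative without donor 2 as in the fit with every donor (-0.0048). The causes were not tested. Of the other values for single genes, 462 kept direction and side of the threshold, 44 lost a call and 11 gained one. COL1A1 at 80 dyne/cm2 passed the filter in only 1 of the fits that left out a donor, and COL17A1 at 2 dyne/cm2 in none. Depth limits COL1A1 most, with 21 counts in the lowest library.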
